A study of Mus musculus with 12 samples.

Results

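The genes described here are 9 genes of interleukin-6 (IL-6) family signalling and of the acute-phase response, chosen by name from the 27179 genes of the deposited table. These genes were chosen with earlier results of these data known. They comprise the ligand Lif, the receptors Il6ra, Il6st and Osmr, the transcription factor Stat3, its feedback inhibitor Socs3, and the acute-phase products Saa3, Hp and Lcn2. The study compared hearts of 2 closely related mouse substrains after transverse aortic constriction (TAC), a surgical narrowing of the aorta that loads the left ventricle with pressure, or after a sham operation. Bulk RNA was sequenced from heart tissue with a stranded mRNA library kit. There were 4 groups of 3 libraries: TAC Balb/cByJ, sham Balb/cByJ, TAC Balb/cJ and sham Balb/cJ. The series title marks Balb/cByJ as carrying a deletion in Acads, the gene of short-chain acyl-CoA dehydrogenase, and names no such deletion for Balb/cJ. Every mouse was fed a diet with 10 kcal% fat, starting 4 days before surgery, and hearts were collected 1 week after surgery. The labels name whole strains and no transgene, and they do not say whether each library came from a separate animal, so p-values measure the spread between libraries.

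Cytokines of the IL-6 family bind receptor complexes, most of which contain the shared signalling chain gp130, which Il6st encodes. Gp130 activates JAK kinases that phosphorylate STAT3, and STAT3 enters the nucleus and switches on genes that include Socs3, whose product blocks further signalling at gp130. In liver the pathway drives the secreted acute-phase proteins of inflammation, and in the pressure-loaded heart it has been studied for its part in cardiomyocyte growth and survival and in inflammation.

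The value of a gene in a library was the authors' normalized read count, rounded to a whole number. These values summed to between 25161466 and 34157613 per library, and raw depth was not given. Acads itself stood at 5674, 5613 and 6697 in TAC Balb/cByJ and at 6929, 6234 and 6925 in sham Balb/cByJ, against 8670, 7252 and 5415 in TAC Balb/cJ and 9033, 10928 and 10628 in sham Balb/cJ. Such a sum over the gene also counts reads outside the deleted bases, so it does not test the deletion. One library went against its strain label. The library labelled TAC Balb/cByJ 6 had a Zhx2 value of 48, where the 5 other Balb/cByJ libraries had 728 to 838 and the Balb/cJ libraries 21 to 47. Its Dnah17 value was 2, where the 5 others had 805 to 1019 and Balb/cJ had 1 to 11. TAC effects in Balb/cByJ are therefore given with and without the library labelled TAC Balb/cByJ 6. The 6 cardiomyocyte markers summed to 1173958 to 1410241 in TAC Balb/cByJ, 1306060 to 1692268 in sham Balb/cByJ, 1166383 to 1552520 in TAC Balb/cJ and 1575144 to 2006826 in sham Balb/cJ, so the labelled tissue was present in every library.

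After TAC, receptor and acute-phase genes were called higher in both substrains, and the ligand Lif, Stat3 and Socs3 were called higher in Balb/cJ. No difference between the TAC effects of the substrains was called for any of the 9 genes. A gene was called where limma's Benjamini-Hochberg adjusted p, over 14038 genes with a mean value of at least 10, was under 0.1, and differences are on the log2(value + 1) scale. In Balb/cByJ, 4 of the 9 genes were called higher after TAC and none lower, namely Il6ra, Osmr, Saa3 and Hp, while 7.81% of all genes tested were called higher and 12.6% were called in either direction. In Balb/cJ, 7 of the 9 were called higher and none lower, namely Lif, Il6st, Osmr, Stat3, Socs3, Saa3 and Hp, while 15.3% of all genes were called higher and 31.5% in either direction. Osmr, Saa3 and Hp were called in both. Because the 9 genes were chosen with earlier results known, their counts and medians beside those of all genes are not a test. Without the library labelled TAC Balb/cByJ 6 the Balb/cByJ count was again 4, with Socs3 called and Il6ra not, while 4.91% of all genes were called. All 9 log2 differences were positive in each substrain, with a median of 0.65 in Balb/cByJ and 0.62 in Balb/cJ, against medians of -0.00408 and -7.81e-05 over all genes tested. All 9 were again positive in Balb/cByJ without the library labelled TAC Balb/cByJ 6, with a median of 0.70. In each substrain 6 of the 9 genes had every TAC library above every sham library, which held for 16.4% of all genes in Balb/cByJ and for 18.8% in Balb/cJ. Leaving out 1 library moved these shares. The 1765 genes called in Balb/cByJ became 6 without sham Balb/cByJ 1, 75 without sham Balb/cByJ 3, 517 without TAC Balb/cByJ 4, 519 without TAC Balb/cByJ 5, 688 without the library labelled TAC Balb/cByJ 6 and 2799 without TAC Balb/cJ 6, and of the 9 genes none was called without sham Balb/cByJ 1. The 4419 genes called in Balb/cJ became 2147 without TAC Balb/cJ 6, 2191 (15.6%) without sham Balb/cJ 2 and 2612 without sham Balb/cJ 3. They became 5040 (35.9%) without sham Balb/cJ 1. In bulk tissue, fewer cells of a type and less RNA per cell cannot be told apart.

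**Figure D1:**
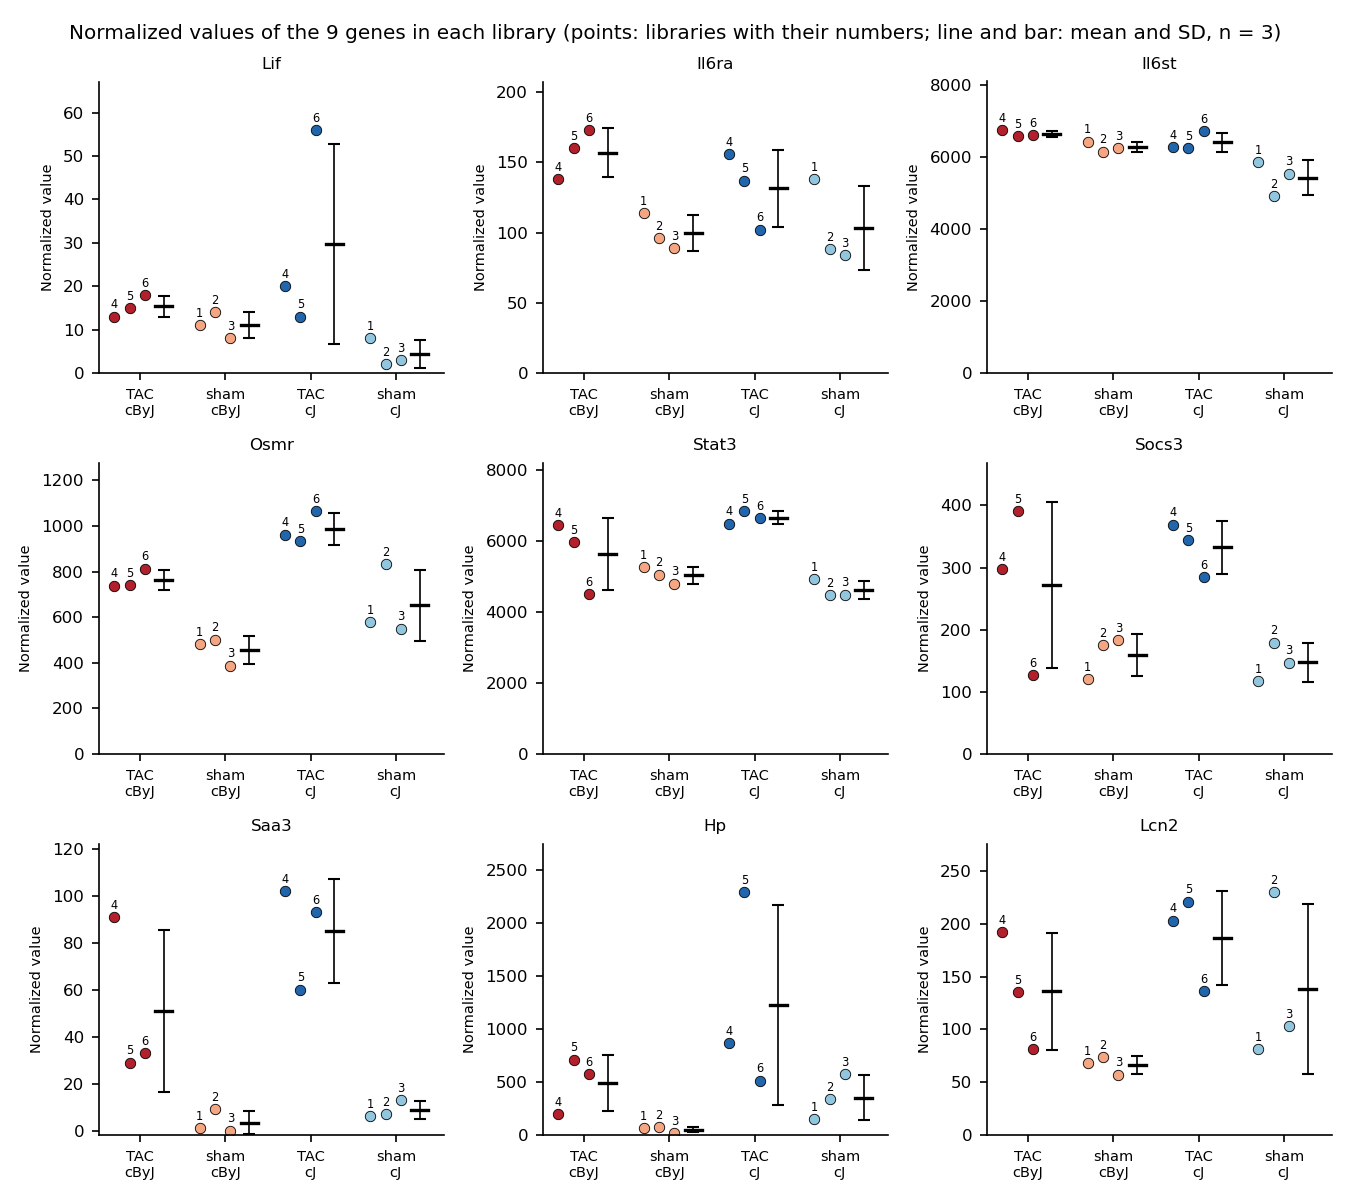
Normalized value (vertical axis, rounded normalized read count) of the 9 genes in each of the 12 libraries, with the group on the horizontal axis. Points are libraries with their numbers, and the line and bar beside them are the group mean and SD (n = 3). Saa3, Osmr and Il6st separate TAC from sham in both substrains. Socs3 and Stat3 show the library labelled TAC Balb/cByJ 6 at 127 and 4500, below the other TAC libraries.

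Lif, the gene of leukaemia inhibitory factor, was the ligand among the 9 and their least abundant member. Lif lies on chromosome 11 from 4257568 to 4272514 (plus strand, 5 exons) in mm10. It stood at 13, 15 and 18 in TAC Balb/cByJ and at 11, 14 and 8 in sham Balb/cByJ, against 20, 13 and 56 in TAC Balb/cJ and 8, 2 and 3 in sham Balb/cJ. The Balb/cByJ groups overlapped, whereas all TAC Balb/cJ libraries lay above all sham Balb/cJ libraries, the highest being TAC Balb/cJ 6. In Balb/cJ, Lif rose by 2.43 ± 0.54 (log2 ± SE, adjusted p = 0.0134 by limma), and the call held without TAC Balb/cJ 6 at 1.85 ± 0.52. In Balb/cByJ the difference was 0.46 ± 0.54 (adjusted p = 0.600), and 0.35 ± 0.63 without the library labelled TAC Balb/cByJ 6 (adjusted p = 0.769). The 2 effects differed by -1.96 ± 0.77, Balb/cByJ minus Balb/cJ, which did not pass the test of the difference (adjusted p = 0.723).

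The other ligands were mostly rare in these hearts. Il6 itself was listed at 6, 14 and 4 in TAC Balb/cByJ and at 0, 1 and 0 in sham Balb/cByJ, against 4, 8 and 17 in TAC Balb/cJ and 0 in all 3 sham Balb/cJ libraries. Its mean was under 10, so it was not tested, although every TAC library lay above every sham library. Osm, the ligand of Osmr, was between 4 and 24 across the 12 libraries and was not called in either substrain, with differences of 0.28 ± 0.57 in Balb/cByJ and 0.45 ± 0.57 in Balb/cJ. Ctf1, which encodes cardiotrophin-1, gave -0.46 ± 0.17 in Balb/cByJ (adjusted p = 0.120) and -0.29 ± 0.17 in Balb/cJ (adjusted p = 0.238). The Balb/cByJ differences without the library labelled TAC Balb/cByJ 6 were 0.95 ± 0.49 for Osm (adjusted p = 0.278) and -0.36 ± 0.19 for Ctf1 (adjusted p = 0.278). Ctf2 and Il31 were listed at 0 in every library.

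Among the receptors, Osmr, the oncostatin M receptor chain that pairs with gp130, was called higher after TAC in both substrains. Osmr lies on chromosome 15 from 6813577 to 6874313 (minus strand, 18 exons). It stood at 738, 739 and 812 in TAC Balb/cByJ and at 481, 501 and 387 in sham Balb/cByJ, against 961, 933 and 1065 in TAC Balb/cJ and 577, 831 and 550 in sham Balb/cJ. TAC libraries lay above sham libraries in each substrain without overlap, and sham Balb/cJ 2 was the sham library nearest to TAC. Osmr was 1.68-fold higher after TAC in Balb/cByJ (adjusted p = 0.0307) and 1.53-fold higher in Balb/cJ (0.62 ± 0.15, adjusted p = 0.0178). Without the library labelled TAC Balb/cByJ 6 the Balb/cByJ rise was 0.70 (adjusted p = 0.0706). In Balb/cByJ the call was lost without sham Balb/cByJ 1 (0.79 ± 0.17, adjusted p = 0.120) or sham Balb/cByJ 3 (0.63 ± 0.16, adjusted p = 0.141). The 2 effects differed by 0.13 ± 0.21 (adjusted p = 0.925). The 250 bases upstream of the RefSeq start of Osmr (GRCm38.p6, chr15:6874314-6874563, minus strand) are shown because Osmr was the receptor called in both substrains, and they held none of the 3 motifs searched.
Osmr: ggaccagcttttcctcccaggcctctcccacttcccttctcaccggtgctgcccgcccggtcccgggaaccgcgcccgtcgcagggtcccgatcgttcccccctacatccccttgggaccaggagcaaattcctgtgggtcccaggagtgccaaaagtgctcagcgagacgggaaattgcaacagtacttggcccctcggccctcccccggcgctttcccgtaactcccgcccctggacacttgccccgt

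Il6st, which encodes gp130, was abundant and nearly level. Il6st lies on chromosome 13 from 112464070 to 112506860 (plus strand, 17 exons). It stood at 6752, 6587 and 6620 in TAC Balb/cByJ and at 6434, 6150 and 6247 in sham Balb/cByJ, against 6272, 6255 and 6726 in TAC Balb/cJ and 5852, 4911 and 5539 in sham Balb/cJ. TAC was higher without overlap in each substrain, yet its whole range over 12 libraries was 1.37-fold. The difference was 0.08 ± 0.08 in Balb/cByJ (adjusted p = 0.522) and 0.24 ± 0.08 in Balb/cJ (adjusted p = 0.0521), a 1.18-fold rise. The Balb/cByJ difference was 0.09 ± 0.10 without the library labelled TAC Balb/cByJ 6 (adjusted p = 0.609). The Balb/cJ call was lost without TAC Balb/cJ 6 (0.21 ± 0.09, adjusted p = 0.153), sham Balb/cJ 2 (0.17 ± 0.08, adjusted p = 0.179) or sham Balb/cJ 3 (0.26 ± 0.10, adjusted p = 0.103).

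Il6ra, the IL-6-binding receptor chain, was called higher after TAC in Balb/cByJ. Il6ra lies on chromosome 3 from 89869324 to 89913162 (minus strand, 10 exons). It stood at 138, 160 and 173 in TAC Balb/cByJ and at 114, 96 and 89 in sham Balb/cByJ, against 156, 137 and 102 in TAC Balb/cJ and 138, 88 and 84 in sham Balb/cJ. The Balb/cByJ groups were separate and the Balb/cJ groups overlapped. The difference was 0.65 ± 0.22 in Balb/cByJ (adjusted p = 0.0922) and 0.36 ± 0.22 in Balb/cJ (adjusted p = 0.246), and the effects differed by 0.29, which was not called. The Balb/cByJ call was lost when any 1 of 8 libraries was left out (0.57 to 0.75, adjusted p = 0.1003 to 0.284): all 6 Balb/cByJ libraries, sham Balb/cJ 2 or TAC Balb/cJ 5. Without the library labelled TAC Balb/cByJ 6 it was 0.58 (adjusted p = 0.207). The Balb/cJ difference was called without sham Balb/cJ 1, at 0.59 ± 0.20 (adjusted p = 0.0554). That leave-out gave calls for 35.9% of all genes in Balb/cJ.

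Of the 5 other receptor genes, 4 were tested. None was called in Balb/cByJ, where limma gave no adjusted p under 0.1 and 1 had an unadjusted p under 0.05. In Balb/cJ, Il27ra, the IL-27 receptor chain that pairs with gp130, rose by 0.49 (adjusted p = 0.0793), and Il11ra1, the IL-11 receptor, fell by 0.32 (adjusted p = 0.0923). The Il27ra call was lost when any 1 of 4 libraries was left out (adjusted p = 0.115 to 0.250), TAC Balb/cJ 4 or 6 or sham Balb/cJ 2 or 3. The Il11ra1 call was lost when any 1 of 9 was left out (adjusted p = 0.103 to 0.319), namely TAC Balb/cByJ 5, the library labelled TAC Balb/cByJ 6, the 3 sham Balb/cByJ libraries, TAC Balb/cJ 5 or 6, or sham Balb/cJ 2 or 3, and no receptor was called lower after upper-quartile or total rescaling. Lifr, the chain through which Lif signals, lay between 650 and 1133 in the 12 libraries and was not called.

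Stat3 and Socs3 rose together in Balb/cJ, and in Balb/cByJ both values moved with the library that went against its strain label. Stat3 lies on chromosome 11 from 100886810 to 100939511 (minus strand, 24 exons). Stat3 stood at 6450, 5964 and 4500 in TAC Balb/cByJ and at 5268, 5052 and 4796 in sham Balb/cByJ, against 6490, 6844 and 6644 in TAC Balb/cJ and 4926, 4482 and 4493 in sham Balb/cJ. The Balb/cJ groups were far apart, whereas the library labelled TAC Balb/cByJ 6 lay below every sham Balb/cByJ library. In Balb/cJ Stat3 rose 1.44-fold (0.52 ± 0.12, adjusted p = 0.0130). The Balb/cByJ difference was 0.15 ± 0.12 (adjusted p = 0.430), and 0.30 without the library labelled TAC Balb/cByJ 6 (adjusted p = 0.107).

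Socs3 lies on chromosome 11 from 117966079 to 117969366 (minus strand, 2 exons). It stood at 298, 391 and 127 in TAC Balb/cByJ and at 121, 175 and 183 in sham Balb/cByJ, against 369, 344 and 285 in TAC Balb/cJ and 117, 179 and 147 in sham Balb/cJ. The library labelled TAC Balb/cByJ 6 fell within the sham range, and the other 5 TAC libraries lay above all 6 sham libraries. In Balb/cJ Socs3 rose 2.26-fold (1.18 ± 0.33, adjusted p = 0.0295). In Balb/cByJ the difference was 0.64 ± 0.33 (adjusted p = 0.237), and without that library it was 1.12 ± 0.23 and called (adjusted p = 0.0483). The 2 effects, Balb/cByJ minus Balb/cJ, differed by -0.54 ± 0.47 with all libraries (adjusted p = 0.839) and by -0.06 without that library. A gene with no symbol overlaps 740 bases of Socs3 exon on the opposite strand and was listed at 0 in every library. The 250 bases upstream of the Socs3 start (GRCm38.p6, chr11:117969367-117969616, minus strand) are shown because Socs3 is a textbook STAT3 target, and the capitals mark a match to the STAT motif TTCNNNGAA, 154 to 146 bases before the start.
Socs3: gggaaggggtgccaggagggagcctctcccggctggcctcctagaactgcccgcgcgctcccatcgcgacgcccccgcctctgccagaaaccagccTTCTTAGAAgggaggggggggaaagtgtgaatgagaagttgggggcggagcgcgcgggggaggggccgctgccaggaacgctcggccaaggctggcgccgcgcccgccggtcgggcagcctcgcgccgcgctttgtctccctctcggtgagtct

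Of 14 other kinases, STATs, phosphatases and inhibitors in the signalling list, all of them tested, 1 was called higher and 1 lower after TAC in Balb/cByJ, and 4 were called higher and none lower in Balb/cJ. As shares of the list these were 14.3% in Balb/cByJ and 28.6% in Balb/cJ, close to the 12.6% and 31.5% of all genes. Ptpn1, a tyrosine phosphatase of JAK kinases, was called in both, at 0.30 in Balb/cByJ (adjusted p = 0.0857, up to 0.276 in the 5 leave-outs that ended this call: TAC Balb/cByJ 4 or 5, sham Balb/cByJ 1 or 3, or TAC Balb/cJ 5) and 0.38 in Balb/cJ (adjusted p = 0.0216). Socs2, a relative of Socs3, rose by 0.68 ± 0.11 in Balb/cJ (adjusted p = 0.00512), against 0.26 ± 0.11 in Balb/cByJ (adjusted p = 0.169). Cish, another SOCS family gene, fell by 0.78 ± 0.20 in Balb/cByJ (adjusted p = 0.0501), a call lost without TAC Balb/cByJ 4, sham Balb/cByJ 1 or sham Balb/cByJ 3 (adjusted p = 0.132 to 0.210). With the library labelled TAC Balb/cByJ 6 left out, the Balb/cByJ values were 0.39 for Ptpn1 (adjusted p = 0.0681), 0.30 for Socs2 (adjusted p = 0.204) and -0.85 for Cish (adjusted p = 0.0802). Among 20 target genes that held none of the 9, 19 were tested, with 2 called higher and 1 lower in Balb/cByJ and 4 called higher and 4 lower in Balb/cJ, against the same shares of all genes, and with 0 to 5 called in Balb/cByJ and 4 to 10 in Balb/cJ when 1 library was left out. The lowest counts were 0 in Balb/cByJ without sham Balb/cByJ 1 and 4 in Balb/cJ without sham Balb/cJ 2 or 3. Timp1, an inhibitor of matrix metalloproteinases, was at 707, 588 and 297 in TAC Balb/cByJ and at 121, 182 and 68 in sham Balb/cByJ, against 1043, 783 and 1055 in TAC Balb/cJ and 90, 104 and 97 in sham Balb/cJ. It rose by 2.11 ± 0.34 in Balb/cByJ (adjusted p = 0.0194) and by 3.28 ± 0.34 in Balb/cJ (adjusted p = 0.000776). Pim1, a STAT-induced kinase gene, gave -0.03 ± 0.20 in Balb/cByJ and rose by 0.91 ± 0.20 in Balb/cJ (adjusted p = 0.0117), and the difference of -0.95 ± 0.28 between these effects was not called (adjusted p = 0.614). The sign of the Pim1 value in Balb/cByJ rested on the library labelled TAC Balb/cByJ 6, where Pim1 was at 163 beside 277 and 290 in the other TAC libraries and 225, 266 and 235 in sham Balb/cByJ. Without it the value was 0.23 ± 0.14 (adjusted p = 0.356) and the difference between the effects -0.68 ± 0.19 (adjusted p = 0.715). Vegfa, the angiogenic growth factor, fell in both, by 0.58 in Balb/cByJ (adjusted p = 0.0432) and by 0.55 in Balb/cJ (adjusted p = 0.0191). The Balb/cByJ calls were lost for Vegfa without TAC Balb/cByJ 4, sham Balb/cByJ 1 or sham Balb/cByJ 3 (adjusted p = 0.106 to 0.151) and for Timp1 without sham Balb/cByJ 1 (adjusted p = 0.1007). Both were called without the library labelled TAC Balb/cByJ 6, at 2.48 ± 0.31 for Timp1 (adjusted p = 0.0143) and -0.57 ± 0.16 for Vegfa (adjusted p = 0.0937).

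Saa3, a serum amyloid A gene expressed outside the liver, was near 0 in sham hearts. Saa3 lies on chromosome 7 from 46711998 to 46715676 (minus strand, 4 exons). It stood at 91, 29 and 33 in TAC Balb/cByJ and at 1, 9 and 0 in sham Balb/cByJ, against 102, 60 and 93 in TAC Balb/cJ and 6, 7 and 13 in sham Balb/cJ. Every TAC library lay above every sham library of either substrain. The rise in Balb/cJ was 3.19 ± 0.71 (9.1-fold, adjusted p = 0.0134), and that in Balb/cByJ was 16.7-fold (adjusted p = 0.0227), where the size depended on the pseudocount because of the low sham values. The Balb/cByJ call was lost without sham Balb/cByJ 1 (3.84 ± 0.81, adjusted p = 0.120) and held without the library labelled TAC Balb/cByJ 6 (4.28, adjusted p = 0.0418). The effects differed by 0.88 ± 1.01, which was not called. The close relatives Saa1 and Saa2 were between 0 and 3 in every library. These values count reads assigned to a gene, so they do not show how many reads the copies shared. The 250 bases upstream of Saa3 (GRCm38.p6, chr7:46715677-46715926, minus strand) held 1 match to the C/EBP motif TTGCNNAA, in capitals, 99 to 92 bases before the start and on the other strand as printed.
Saa3: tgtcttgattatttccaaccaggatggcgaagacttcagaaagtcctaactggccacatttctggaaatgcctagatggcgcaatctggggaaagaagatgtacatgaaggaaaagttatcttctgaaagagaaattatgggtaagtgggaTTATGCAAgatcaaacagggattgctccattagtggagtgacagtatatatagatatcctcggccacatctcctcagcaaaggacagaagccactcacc

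Hp, which encodes the haemoglobin-binding protein haptoglobin, ranged 115-fold over the libraries, with 20 in sham Balb/cByJ 3 as the lowest value and 2291 in TAC Balb/cJ 5 as the highest. Hp lies on chromosome 8 from 109575128 to 109579172 (minus strand, 5 exons). It stood at 196, 710 and 571 in TAC Balb/cByJ and at 63, 72 and 20 in sham Balb/cByJ, against 866, 2291 and 514 in TAC Balb/cJ and 150, 337 and 572 in sham Balb/cJ. The Balb/cByJ groups were separate, and sham Balb/cJ 3 lay above TAC Balb/cJ 6. Hp was 9.35-fold higher after TAC in Balb/cByJ (adjusted p = 0.0327) and 3.27-fold higher in Balb/cJ (1.71 ± 0.67, adjusted p = 0.0860). In Balb/cByJ the call was lost without sham Balb/cByJ 1 (3.46 ± 0.77, adjusted p = 0.120) or sham Balb/cByJ 3 (2.66 ± 0.69, adjusted p = 0.151), and held without the library labelled TAC Balb/cByJ 6 (3.02, adjusted p = 0.0755). In Balb/cJ it was lost when any 1 of 5 libraries was left out (1.12 to 1.82, adjusted p = 0.102 to 0.267): TAC Balb/cJ 4 or 5, sham Balb/cJ 1 or 2, or sham Balb/cByJ 1. The effects differed by 1.52 ± 0.95 (adjusted p = 0.773).

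Lcn2, which encodes the iron-siderophore-binding lipocalin 2 of neutrophils and inflamed tissue, was not called after TAC. Lcn2 lies on chromosome 2 from 32384637 to 32387739 (minus strand, 6 exons). It stood at 192, 135 and 81 in TAC Balb/cByJ and at 68, 74 and 57 in sham Balb/cByJ, against 203, 221 and 136 in TAC Balb/cJ and 81, 230 and 103 in sham Balb/cJ. The Balb/cByJ groups were separate, and sham Balb/cJ 2 held the highest value of all 12 libraries. The differences were 0.95 ± 0.37 in Balb/cByJ (adjusted p = 0.137) and 0.55 ± 0.37 in Balb/cJ (adjusted p = 0.304). The Balb/cByJ difference was 1.27 ± 0.38 without the library labelled TAC Balb/cByJ 6 (adjusted p = 0.104). Without sham Balb/cJ 2 the differences of both substrains passed, at 0.95 ± 0.29 in Balb/cByJ (adjusted p = 0.0847) and 0.99 ± 0.33 in Balb/cJ (adjusted p = 0.0862). The sequence upstream of Lcn2 (GRCm38.p6, chr2:32387740-32387989, minus strand) is shown beside that of Saa3 because it too held 1 match to TTGCNNAA, in capitals, 216 to 209 bases before the start.
Lcn2: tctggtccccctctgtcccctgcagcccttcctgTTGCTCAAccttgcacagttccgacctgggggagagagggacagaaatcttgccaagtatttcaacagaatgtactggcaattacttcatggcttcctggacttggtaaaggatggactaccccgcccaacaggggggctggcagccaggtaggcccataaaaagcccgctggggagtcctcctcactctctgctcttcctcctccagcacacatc

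The motif search covered both strands of the 250 upstream bases of the 8 genes found in the RefSeq promoter table. It used TTCNNNGAA for STAT factors, TTGCNNAA for C/EBP factors and the NF-kB consensus, and overlaps between motifs were allowed. Among 32851 promoters of the same length, 7.02% held the STAT motif, 9.56% the C/EBP motif and 3.9% the NF-kB motif. Of the 8 genes, 1 held the STAT motif, 2 the C/EBP motif and none the NF-kB motif. For Il6ra and Stat3 the RefSeq start differed from the first base of the deposited gene model by 34 and 29 bases, and for the other 6 it was the same base.

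Of 25 acute-phase genes beyond the 9, 12 were tested, with 5 called higher and none lower in Balb/cByJ, where 7.81% of all genes were called higher, and 9 called higher and none lower in Balb/cJ, where 15.3% were. This list too was chosen with earlier results known, so its counts beside the shares of all genes are not a test. The 12 had median differences of 0.63 in Balb/cByJ, or 0.96 without the library labelled TAC Balb/cByJ 6, and 1.47 in Balb/cJ. When 1 library was left out, the Balb/cByJ count ran from 0 to 5, with 0 without sham Balb/cByJ 1, 1 without sham Balb/cByJ 3 and 3 without TAC Balb/cByJ 4 or 5, and the Balb/cJ count ran from 7 to 9. Itih4, an inter-alpha-trypsin inhibitor heavy chain, was at 224, 337 and 305 in TAC Balb/cByJ and at 59, 98 and 38 in sham Balb/cByJ, against 236, 265 and 214 in TAC Balb/cJ and 85, 107 and 50 in sham Balb/cJ. It rose by 2.22 ± 0.33 in Balb/cByJ (adjusted p = 0.0181) and by 1.61 ± 0.33 in Balb/cJ (adjusted p = 0.00979). C3, the central complement component, rose by 1.34 ± 0.24 in Balb/cByJ (adjusted p = 0.0250) and by 1.10 ± 0.24 in Balb/cJ (adjusted p = 0.0129). Serpina3n, Lbp and Cp were called in both as well, at 1.27, 0.87 and 0.65 in Balb/cByJ and 1.82, 1.32 and 0.45 in Balb/cJ. Each of these 5 genes lost its Balb/cByJ call in at least 1 of the leave-outs (adjusted p up to 0.2801 for Lbp), and Cp lost its Balb/cJ call when TAC library 5 or sham library 2 or 3 of that substrain was left out (adjusted p = 0.1005 to 0.121). All 5 were called in Balb/cByJ without the library labelled TAC Balb/cByJ 6, at 2.17 for Itih4, 1.43 for C3, 1.67 for Serpina3n, 1.15 for Lbp and 0.57 for Cp (adjusted p = 0.0330, 0.0418, 0.0388, 0.0551 and 0.0744). Ptx3, the long pentraxin of inflamed tissue, rose by 1.83 ± 0.29 in Balb/cJ (adjusted p = 0.00440) and gave 0.37 ± 0.29 in Balb/cByJ (adjusted p = 0.429), and the difference of -1.46 ± 0.41 was not called (adjusted p = 0.575). A2m, the protease inhibitor alpha-2-macroglobulin, chosen here after its values were seen, gave -0.76 ± 0.50 in Balb/cByJ (adjusted p = 0.343), with every TAC library below every sham library, and rose by 2.46 ± 0.50 in Balb/cJ (adjusted p = 0.0101). A2m stood at 50, 58 and 36 in TAC Balb/cByJ and at 84, 88 and 71 in sham Balb/cByJ. The Balb/cJ rise started from low sham values of 10, 1 and 2, with 17, 20 and 28 after TAC. No difference between the TAC effects was called for any of the 12 genes, and 1 was called without sham Balb/cJ 1. Leaving out the library labelled TAC Balb/cByJ 6 gave Balb/cByJ differences of 0.44 for Ptx3 (adjusted p = 0.452) and -0.57 for A2m (adjusted p = 0.575).

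The highest point of the acute-phase list in Balb/cJ was Hamp, the gene of the iron hormone hepcidin, also chosen after its values were seen. Hamp stood at 9, 654 and 218 in TAC Balb/cByJ and at 157, 469 and 5 in sham Balb/cByJ, against 51, 270 and 241 in TAC Balb/cJ and 2, 0 and 0 in sham Balb/cJ. The atrial marker Myl7, an atrial myosin light chain, stood at 640, 30930 and 14285 in TAC Balb/cByJ and at 4670, 14508 and 237 in sham Balb/cByJ, against 2381, 15126 and 9598 in TAC Balb/cJ and 6, 13 and 11 in sham Balb/cJ. Within the TAC Balb/cByJ, sham Balb/cByJ and TAC Balb/cJ groups the libraries stood in the same order for both genes, and sham Balb/cJ was lowest for both. The part of atrial tissue in the Hamp values was not tested. Hamp was not called in Balb/cByJ (adjusted p = 0.848, and 0.984 without the library labelled TAC Balb/cByJ 6) and was called in Balb/cJ (adjusted p = 0.0165).

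The liver products Apcs and Fgb were listed at 0 in every library. Of the 5 hepatocyte markers, Alb and Serpina1c were at 0 or 1 and Apoa1 at 0 to 2 in every library, Ttr at 6 to 20, and Ahsg, the gene of the secreted protein fetuin-A, at 90 to 670. Ahsg stood at 381, 666 and 610 in TAC Balb/cByJ and at 670, 583 and 233 in sham Balb/cByJ, against 611, 363 and 233 in TAC Balb/cJ and 116, 90 and 236 in sham Balb/cJ. The TAC and sham groups overlapped in each substrain. Ahsg gave 0.25 ± 0.46 in Balb/cByJ (adjusted p = 0.747, and 0.16 ± 0.53 without the library labelled TAC Balb/cByJ 6) and rose by 1.46 ± 0.46 in Balb/cJ (adjusted p = 0.0416), a call lost without TAC Balb/cJ 4 (adjusted p = 0.113) or sham Balb/cJ 2 (adjusted p = 0.158). Ttr fell by 0.99 ± 0.35 in Balb/cJ (adjusted p = 0.0594), a call lost after total rescaling and when TAC library 6 or sham library 2 or 3 of that substrain was left out (adjusted p = 0.130 to 0.203).

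**Figure D2:**
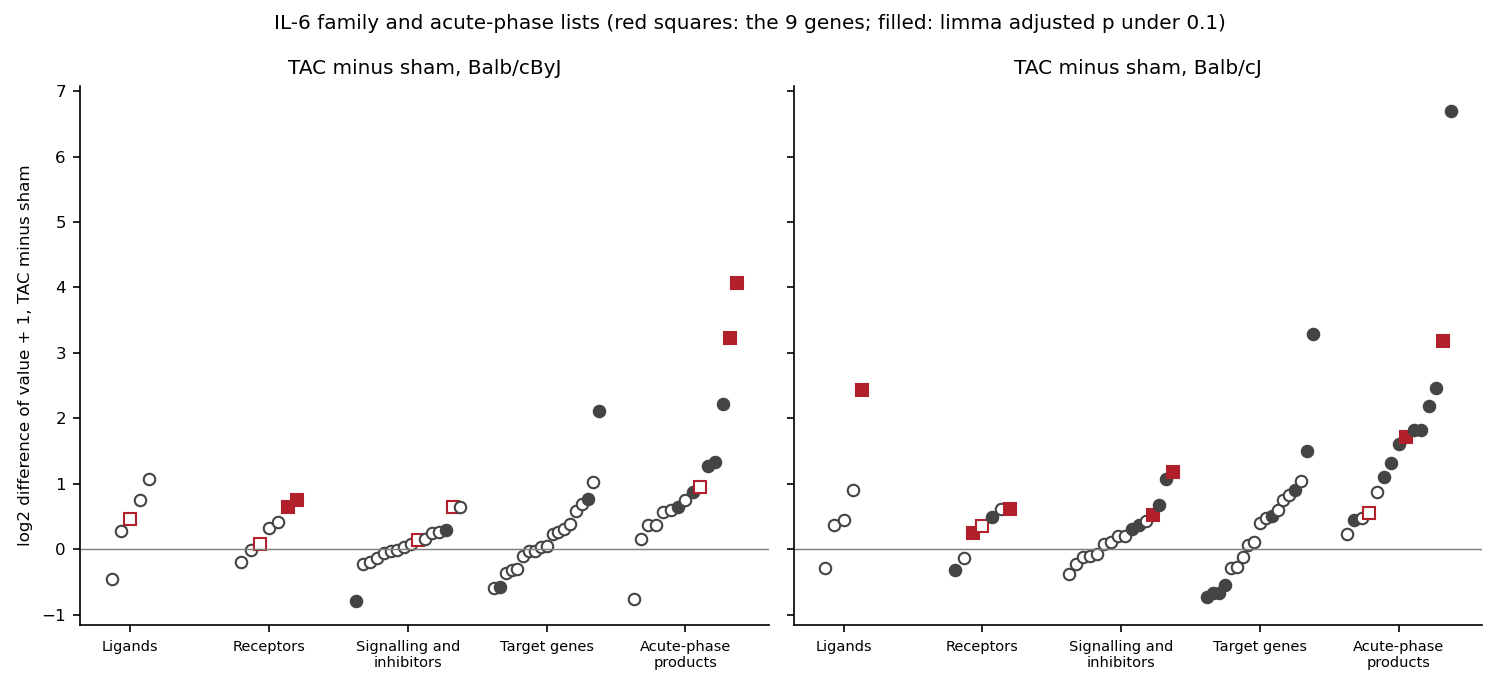
Log2 difference of value + 1, TAC minus sham (vertical axis), for the tested genes reported here of the 5 pathway lists in Balb/cByJ (left) and Balb/cJ (right), ordered by size within each list. Red squares are the 9 genes, circles are other genes, and filled symbols had a limma adjusted p under 0.1. Called acute-phase products lie above 0 in both panels, while target genes were called in both directions.

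Between the substrains after TAC, none of the 9 genes was called by limma, and 2 had an unadjusted p under 0.05, while 0.00712% of all genes (1 gene) were called. Osmr differed by -0.37 ± 0.15 (adjusted p = 0.441) and Stat3 by -0.26 ± 0.12 (adjusted p = 0.502), and these 2 had all TAC Balb/cByJ libraries below all TAC Balb/cJ libraries, which held for 7.54% of all genes. The remaining differences were -0.66 for Lif, 0.27 for Il6ra, 0.05 for Il6st, -0.43 for Socs3, -0.88 for Saa3, -1.23 ± 0.67 for Hp and -0.51 for Lcn2. The interaction, which tests whether the TAC effect differed between substrains, was called for none of the 9, with 2 at an unadjusted p under 0.05, and for 0.00712% of all genes. Without the library labelled TAC Balb/cByJ 6, none of the 9 was called in either comparison, while 75 of all genes (0.535%) were called after TAC in place of 1. The differences after TAC were then 0.05 for Socs3, -0.10 for Stat3, -0.18 for Lcn2, -0.77 for Lif, 0.20 for Il6ra, -0.41 for Osmr, -0.68 for Saa3 and -1.43 for Hp. Without TAC Balb/cJ 6 the Lif difference was -0.08, that of Il6ra 0.10, that of Il6st 0.09 and that of Hp -1.71, whereas without TAC Balb/cJ 5, the library with the highest Hp value, Hp gave -0.63. Saa3 ran from -1.39 without TAC Balb/cByJ 4 to -0.59 without TAC Balb/cByJ 5.

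Between the sham groups, 2 of the 9 genes were called, both lower in Balb/cByJ, while 4.10% of all genes were called lower and 8.37% in either direction. Hp averaged 51.7 ± 27.8 in sham Balb/cByJ and 353 ± 212 in sham Balb/cJ (SD, n = 3 each), without overlap (adjusted p = 0.0429). The Hp call was lost without sham Balb/cByJ 3 (-2.17 ± 0.69, adjusted p = 0.134), sham Balb/cJ 2 (-2.67 ± 0.79, adjusted p = 0.151) or sham Balb/cJ 3 (-2.29 ± 0.73, adjusted p = 0.120). Osmr averaged 456 ± 60.9 in sham Balb/cByJ and 653 ± 155 in sham Balb/cJ, also without overlap, a difference of -0.50 ± 0.15 (adjusted p = 0.0836). The Osmr call was lost when any 1 of 7 libraries was left out (-0.57 to -0.31, adjusted p = 0.107 to 0.264): TAC Balb/cByJ 4 or 5, all 3 sham Balb/cByJ libraries, TAC Balb/cJ 5 or sham Balb/cJ 2. Lcn2 was lower in Balb/cByJ without overlap and Il6st higher without overlap, at -0.90 ± 0.37 (adjusted p = 0.184) and 0.21 ± 0.08 (adjusted p = 0.155). Of the 9 genes, 3 were lower and 1 higher in Balb/cByJ without overlap, while non-overlap in either direction held for 27.2% of all genes. Lcn2 and Il6st were called by limma without sham Balb/cJ 1, at -1.21 ± 0.39 for Lcn2 (adjusted p = 0.0926) and 0.27 ± 0.08 for Il6st (adjusted p = 0.0876). Lif was called there as well, at 1.76 ± 0.55 (adjusted p = 0.0886) in place of 1.30 ± 0.54 (adjusted p = 0.187). Without sham Balb/cJ 2 the Lcn2 difference was -0.46 (adjusted p = 0.557) and the Lif difference 0.97. Saa3 gave -1.76 ± 0.71 (adjusted p = 0.174), and -2.71 ± 0.55 without sham Balb/cByJ 2 (adjusted p = 0.0460) but -1.04 without sham Balb/cByJ 3. Over all genes the 1175 called were 321 without sham Balb/cJ 2, 411 without sham Balb/cByJ 2, 628 without sham Balb/cByJ 1 and 641 without sham Balb/cByJ 3. They rose to 1605 (11.4%) without sham Balb/cJ 1 and to 1643 (11.7%) without TAC Balb/cJ 6. Stat3, Socs3 and Il6ra gave 0.12, 0.11 and -0.02. All of these sham libraries are also those against which the TAC effects were measured, so the sham and TAC comparisons are not independent of each other.

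**Figure D3:**
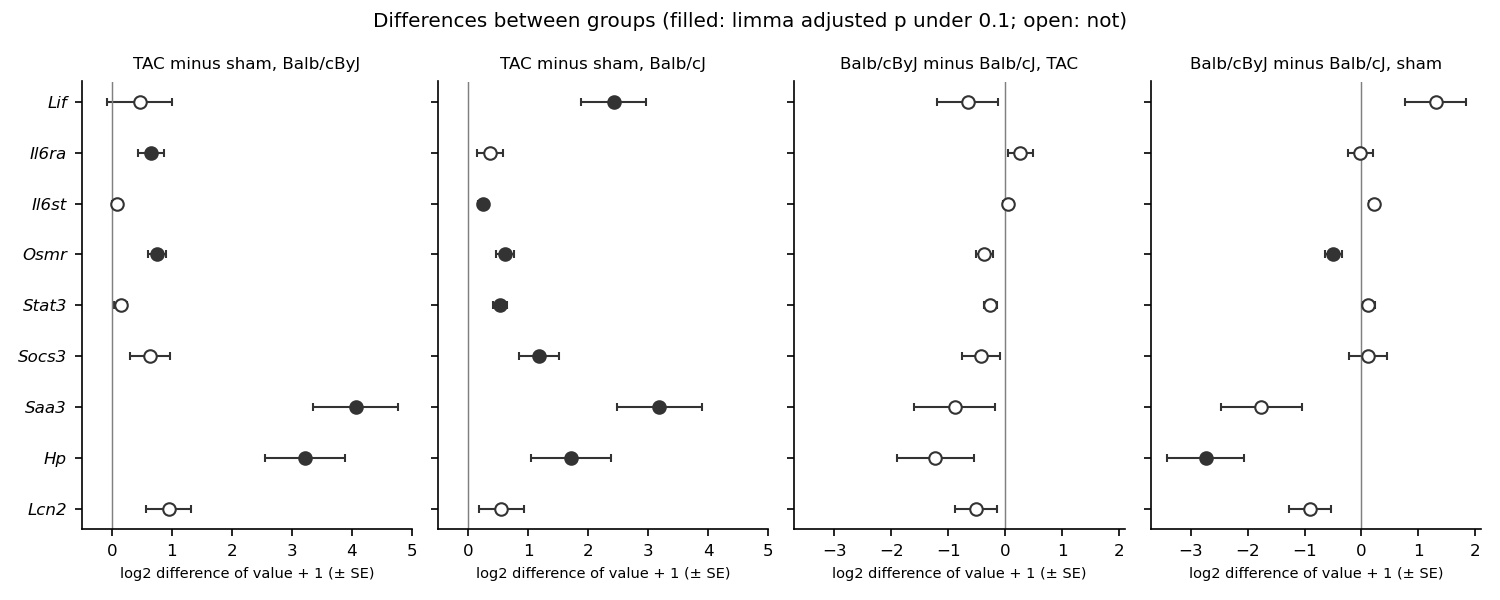
Log2 differences of value + 1 with their SE (horizontal axis) for the 9 genes (vertical axis) in 4 comparisons, from left to right TAC minus sham in Balb/cByJ, TAC minus sham in Balb/cJ, and Balb/cByJ minus Balb/cJ after TAC and after sham. Filled points had a limma adjusted p under 0.1. All 9 points lie above 0 in both TAC panels, no point is filled after TAC between substrains, and Osmr and Hp are filled after sham.

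Set per kilobase of gene model, so that genes can be compared, the mean level over all 12 libraries, pooled over groups that differ, ordered the 9 genes as Stat3 (1224), Il6st (1136), Hp (394), Lcn2 (155), Osmr (148), Socs3 (83.5), Saa3 (69.7), Il6ra (36.8) and Lif (3.73). Stat3 and Il6st exchanged places between groups, with 1257 ± 226 and 1220 ± 16.0 per kilobase in TAC Balb/cByJ, 1123 ± 52.7 and 1151 ± 26.5 in sham Balb/cByJ, 1484 ± 39.6 and 1177 ± 49.0 in TAC Balb/cJ, and 1033 ± 56.4 and 997 ± 87.9 in sham Balb/cJ. Outside TAC Balb/cJ the gap between these neighbours was within the SD of Stat3, though in both Balb/cByJ groups it exceeded the smaller SD of Il6st. Saa3 changed place as well, with 96.0 ± 65.3 per kilobase in TAC Balb/cByJ and 6.28 ± 9.29 in sham Balb/cByJ, against 160 ± 41.6 in TAC Balb/cJ and 16.3 ± 7.13 in sham Balb/cJ. It stood above Socs3 (122 ± 15.8) in TAC Balb/cJ, a gap within the SD of Saa3, and below Il6ra in both sham groups (29.8 ± 3.86 in Balb/cByJ and 30.9 ± 9.001 in Balb/cJ). Lcn2 and Osmr were neighbours within the SD of Lcn2 in 3 groups, at 159 ± 65.1 and 158 ± 8.78 in TAC Balb/cByJ, 219 ± 52.5 and 204 ± 14.4 in TAC Balb/cJ, and 162 ± 94.3 and 135 ± 32.1 in sham Balb/cJ, while sham Balb/cByJ had 77.8 ± 10.1 for Lcn2 and 94.4 ± 12.6 for Osmr. Hp came next after Stat3 and Il6st in TAC Balb/cByJ (366 ± 198), TAC Balb/cJ (910 ± 700) and sham Balb/cJ (262 ± 157). Its gap to Lcn2 was within the SD of Hp in both Balb/cJ groups. In sham Balb/cByJ Hp was at 38.4 ± 20.7, below Osmr, Lcn2 and Socs3 (58.4 ± 12.3), and its gap to Socs3 was within the SD of Hp.

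Over the 12 libraries, likeness to a gene's own pattern was measured as the root mean square difference between log2(value + 1) values centred on their means, among 11464 genes with a mean of at least 50. Timp1 lay at 1.02 from Saa3, which itself spread by 2.11, and Col22a1 lay at 1.08 from Hp, which spread by 1.82. Socs3 was most like Sbno2 (0.27) and Sphk1 (0.30), against its own spread of 0.62. Osmr was most like Cyb561 (0.12) and Pknox2 (0.18), Stat3 most like Eif1a and Gas2l1 (both 0.09), and Lif most like Tpbg (0.41) and Sele (0.45). Il6st was most like Dnajc10 and Twsg1 (both 0.05), and Il6ra most like Scn7a and Abcb1b (both 0.17).

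Marker genes of other cell types were set beside these values. The 7 adipocyte markers, of which Car3, Cfd and Cidec had the highest means, summed to 547, 5472 and 1287 in TAC Balb/cByJ and to 533, 315 and 23 in sham Balb/cByJ, against 552, 3022 and 1583 in TAC Balb/cJ and 36, 16 and 37 in sham Balb/cJ. Hp was highest in the library with the highest adipocyte sum within each TAC group, while sham Balb/cJ 3, with an Hp value of 572, had an adipocyte sum of 37. TAC Balb/cJ 4, with the lowest adipocyte sum of its group (552), had Hp at 866, above the 514 of TAC Balb/cJ 6 (1583). In sham Balb/cByJ the adipocyte sum was highest in library 1 and Hp in library 2 (72). Of 6 adipocyte markers tested, 4 were called higher after TAC in Balb/cByJ and 6 in Balb/cJ, and limma called none in Balb/cByJ without the library labelled TAC Balb/cByJ 6, with 5 of the 6 at an unadjusted p under 0.05. The 7 neutrophil markers summed to 191, 110 and 175 in TAC Balb/cByJ and to 162, 128 and 96 in sham Balb/cByJ, against 329, 494 and 229 in TAC Balb/cJ and 96, 979 and 340 in sham Balb/cJ. Lcn2 was highest in sham Balb/cJ 2, the library with the highest neutrophil sum, and the defining marker Ly6g was at 0 in 10 libraries, at 2 in TAC Balb/cJ 5 and at 4 in sham Balb/cJ 2. Yet Lcn2 was at 103 in sham Balb/cJ 3, with a neutrophil sum of 340, and at 192 in TAC Balb/cByJ 4, with a sum of 191. None of the 3 neutrophil markers tested was called by limma after TAC in either substrain, and none had an unadjusted p under 0.05, while 1 was called higher in Balb/cJ without sham Balb/cJ 2. The 7 macrophage markers summed to 5060 to 6517 in TAC Balb/cByJ and 2182 to 3724 in sham Balb/cByJ, against 5149 to 5625 in TAC Balb/cJ and 1794 to 3047 in sham Balb/cJ, with 6 of 7 called higher in Balb/cByJ, or 4 of 7 without the library labelled TAC Balb/cByJ 6, and 7 of 7 in Balb/cJ. The 6 fibroblast markers summed to 61292 to 73537 in TAC Balb/cByJ and 29843 to 39547 in sham Balb/cByJ, against 55792 to 107108 in TAC Balb/cJ and 28773 to 40006 in sham Balb/cJ, with 5 of 6 called higher in each, and 5 again in Balb/cByJ without the library labelled TAC Balb/cByJ 6. Mesothelial markers summed to 516 to 1034 in TAC Balb/cByJ and 343 to 426 in sham Balb/cByJ, against 325 to 794 in TAC Balb/cJ and 155 to 212 in sham Balb/cJ, and of 6 tested limma called none after TAC in Balb/cByJ, with 2 at an unadjusted p under 0.05, and 5 in Balb/cJ. Wt1 made up most of the sham Balb/cJ sums, at 189, 170 and 132. Upk3b was at 10, 13 and 5 there and at 113, 123 and 98 in sham Balb/cByJ. Between the sham groups 4 mesothelial markers were called, all higher in Balb/cByJ, and 2 to 4 when 1 library was left out. The 5 atrial markers, which can move with how much atrium a sample holds, summed to 22114 to 225808 in TAC Balb/cByJ and 3670 to 107420 in sham Balb/cByJ, against 39218 to 150568 in TAC Balb/cJ and 8540 to 18595 in sham Balb/cJ. Nppa made up nearly all of the sham Balb/cJ sums, at 12232, 8401 and 18449 of 12341, 8540 and 18595. Myl7 was at 6, 13 and 11 there, against 2381, 15126 and 9598 in TAC Balb/cJ and 4670, 14508 and 237 in sham Balb/cByJ. Limma called none of the 5 after TAC in Balb/cByJ, with 1 at an unadjusted p under 0.05, and 5 of 5 higher in Balb/cJ (median difference 7.18), and between the sham groups 3 were called, all higher in Balb/cByJ. The 5 endothelial markers summed to 18170 to 19351 in TAC Balb/cByJ and 18115 to 20446 in sham Balb/cByJ, against 15575 to 17097 in TAC Balb/cJ and 17531 to 27867 in sham Balb/cJ, with none called after TAC in Balb/cByJ by limma and none at an unadjusted p under 0.05. In Balb/cJ 4 of the 5 endothelial markers were called lower, but 1 after total rescaling and 2 without TAC Balb/cJ 4. When 1 library was left out, the Balb/cByJ counts after TAC ran from 0 to 7 for macrophage, 0 to 5 for fibroblast and 0 to 5 for adipocyte markers. Each was 0 without sham Balb/cByJ 1, the macrophage count was 1 without sham Balb/cByJ 3 and 2 without TAC Balb/cByJ 4, the fibroblast count was 0 without sham Balb/cByJ 3, and the adipocyte count was 0 without TAC Balb/cByJ 5 or sham Balb/cByJ 3. The Balb/cJ counts ran from 5 to 7 for macrophage, 3 to 5 for fibroblast and 3 to 5 for atrial markers. Each count of 3 came without sham Balb/cJ 2, and also without TAC Balb/cJ 5 or sham Balb/cJ 3 for fibroblast and without TAC Balb/cJ 6 for atrial markers. The part of these cells in the values of the 9 genes was not tested.

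**Figure D4:**
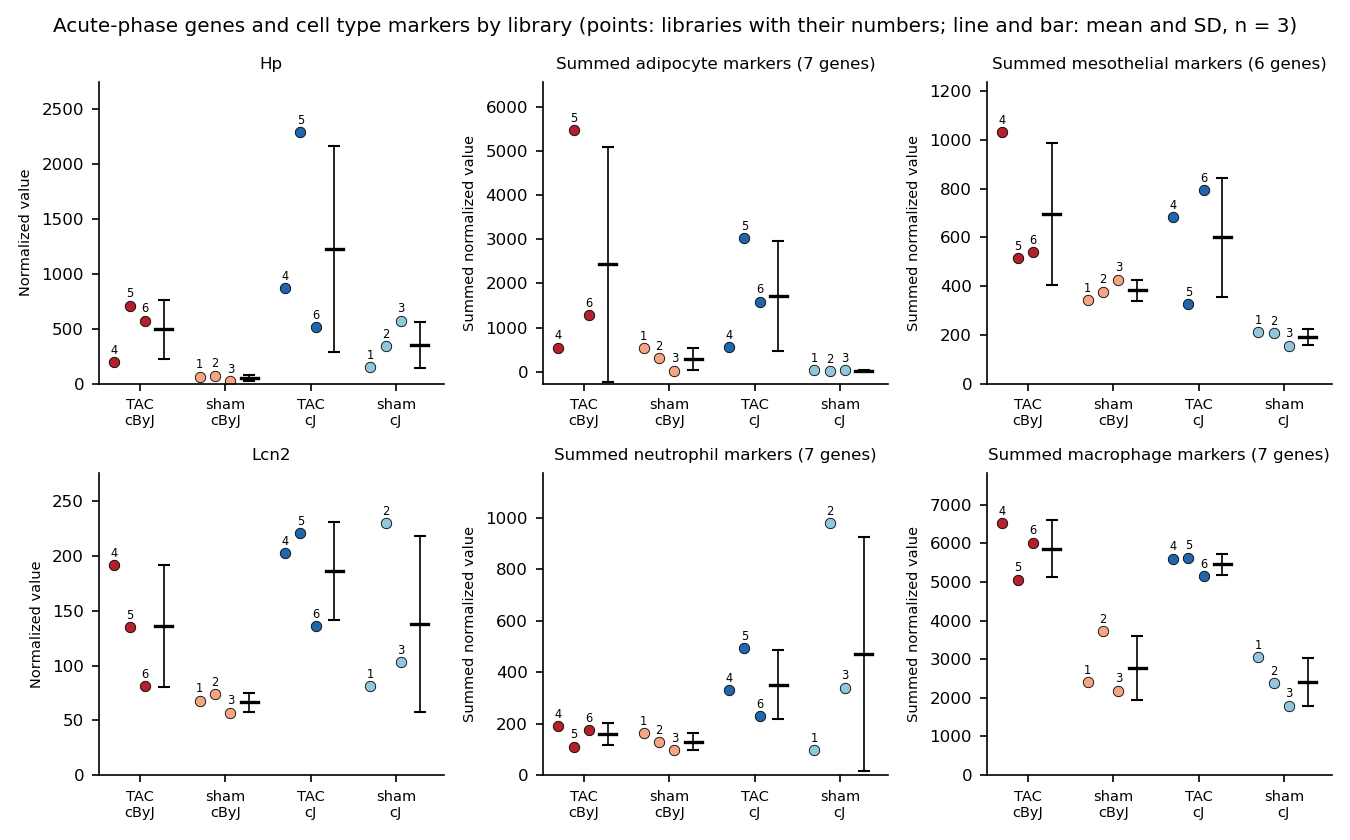
Normalized values of Hp and Lcn2 beside the summed normalized values of the adipocyte, mesothelial, neutrophil and macrophage markers (vertical axes) in each library, by group (horizontal axis). Points are libraries with their numbers, and the line and bar are the group mean and SD (n = 3). TAC Balb/cJ 5 is highest for Hp, at 2291, and sham Balb/cJ 2 is highest for Lcn2 and for the neutrophil sum, at 230 and 979.

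The authors' deposited table gives its own shrunken log2 fold changes and adjusted p-values for TAC against sham in each substrain. At 10% false discovery rate the authors' deposited table calls 20.4% of genes with an adjusted p in Balb/cByJ and 21.5% in Balb/cJ. In Balb/cByJ the authors' deposited table calls Osmr, Hp, Lcn2 and Il6ra (adjusted p = 1.507e-05, 0.00139, 0.0183 and 0.0322), and holds no adjusted p for Saa3. It gives no Balb/cByJ values without the library labelled TAC Balb/cByJ 6. Limma did not call Lcn2 in Balb/cByJ (adjusted p = 0.137). In Balb/cJ the authors' deposited table calls Saa3, Socs3, Stat3, Lif and Osmr (adjusted p = 8.21e-12, 4.271e-06, 9.055e-05, 0.00780 and 0.0158), and gives 0.130 for Hp and 0.184 for Il6st. Limma called both Hp and Il6st in Balb/cJ (adjusted p = 0.0860 and 0.0521).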

How the data were processed

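Gene-level RNA-seq values of 12 mouse heart libraries were used as deposited. The authors' normalized counts are whole numbers treated here as a score, because the table names no unit. Up to 9 whole numbers between 2 and 60 never occurred in a library, as happens when counts are divided by a size factor and rounded. Reads were processed with STAR, Subread featureCounts and DESeq2 on mm10, per the submitters' processing notes; tool versions and the strand setting were not given in the sources used. The deposited table also holds the authors' shrunken log2 fold changes, their adjusted p-values and other gene annotation (exon coordinates and gene length). Columns were assigned to libraries by their names. TAC columns are numbered 4, 5 and 6, which no TAC title carries, so each was assigned to its group only. No value column was left unmapped.

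Because the values were not raw counts, limma 3.58.1 (R 4.3.3, lmFit, contrasts.fit, eBayes with trend) was fitted to log2(value + 1) over 14038 genes with a mean of at least 10, with 4 group means, 12 libraries and 8 residual degrees of freedom. Calls used a Benjamini-Hochberg adjusted p under 0.1, the false discovery rate of the study's design text. The fit was tested on simulated data with independent noise for each gene and library and differences planted in TAC Balb/cJ. Such data hold no shifts of a whole library, so they do not test how the calls depend on single libraries. Python 3.11.15, numpy 2.4.6, pandas 2.3.3 and matplotlib 3.10.9 were used for summaries and figures. Raw depth is unknown, so no counting intervals are given. No 2 libraries of a group held the same values. Promoter sequences are RefSeq's, build GRCm38.p6, the assembly of mm10.

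The members and lists were chosen with earlier results of these data known. All 9 members were named, with up to 6 other genes per pathway list by smallest unadjusted p over both TAC comparisons, any ligand or receptor, up to 3 genes per cell marker list by mean value, and the 2 genes most like each called member. Other genes are said to be chosen after their values were seen. Alternatives tried were no filter, pseudocounts of 0.5 and 5, upper-quartile and total rescaling, robust eBayes, a replicate block, fits restricted to the groups compared, an adjusted p of 0.05, and leaving out each library. One further gene of the lists is not reported here.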

Additional observations from a re-analysis of the deposited data

How the results depend on the processing

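Across the alternatives, 856 of 916 values of the 9 genes kept their direction and their side of the threshold, while 8 reversed, 41 lost a call and 11 gained one. Many could not change direction, because leaving out a library outside a comparison leaves its log2 difference the same. Among the calls, Il6ra in Balb/cByJ was lost in 10 of 20 alternatives, Osmr in sham in 10 of 21 and Hp in Balb/cJ in 8 of 20. The Balb/cJ count of 7 called after TAC stayed between 5 and 8, with Lif, Osmr, Stat3, Socs3 and Saa3 called in all 20 alternatives, and none was called between substrains after TAC or in the interaction under any alternative. The Balb/cByJ count of 4 ran from 0 to 4 when 1 library was left out, with 0 without sham Balb/cByJ 1 and 1 without sham Balb/cByJ 3. The sham count of 2 was 1 after total rescaling, 1 in a fit of only the groups compared and 1 at an adjusted p of 0.05, and it ran from 0 to 5 when 1 library was left out, with 0 without sham Balb/cJ 2 or sham Balb/cByJ 3 and 5 without sham Balb/cJ 1. Over all genes, the calls between the sham groups were 1605 (11.4%) without sham Balb/cJ 1, against 1175 with all libraries. Some differences that were not called changed sign. Il6ra in sham was 0.059 after total rescaling and ran from -0.15 without sham Balb/cJ 3 to 0.20 without sham Balb/cJ 1, with 0.00065 without sham Balb/cByJ 2 and 0.05 without sham Balb/cByJ 3. Socs3 in sham ran from -0.046 without sham Balb/cJ 1 to 0.30 without sham Balb/cByJ 1. After TAC, Socs3 between substrains ran from -0.76 without TAC Balb/cByJ 5 to 0.045 without the library labelled TAC Balb/cByJ 6. In the interaction, Osmr ran from -0.057 without sham Balb/cJ 2 to 0.24 without sham Balb/cJ 3, and Lcn2 from -0.045 without sham Balb/cJ 2 to 0.72 without the library labelled TAC Balb/cByJ 6. The cause was not tested. Total rescaling shifted the median gene after TAC by 0.16 in Balb/cByJ and 0.21 in Balb/cJ, and over all genes it gave 1634 higher and 228 lower calls in Balb/cByJ, against 1097 and 668 as deposited, and 3936 and 891 in Balb/cJ, against 2146 and 2273. No called gene of the 9 or of the lists changed sign under either rescaling.

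Same-numbered libraries of the 2 substrains did not deviate together (r between -0.21 and 0.17), so their numbers were not taken as pairs. With a replicate block the counts of the 9 called were 2 in sham, 0 after TAC and 0 in the interaction, and no block could be fitted to TAC against sham, whose columns share no number. Raw depth is unknown. Lif had values of 20 or less in 11 libraries and Saa3 of 13 or less in every sham library, and with 3 libraries a group the SE of a TAC effect was 0.54 for Lif and 0.71 for Saa3, against 0.08 for the abundant Il6st.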
